A study of Mus musculus with 42 samples.

Results

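RvE1 was compared with vehicle in the livers of obese WT mice. The comparison took 14 of the 42 livers of the series, 7 from WT obese+RvE1 mice and 7 from WT obese mice, and the members were the 2 groups as the sample labels give them. All 14 mice were male C57BL/6J, carried an intact ChemR23 gene as littermates of ChemR23 knockout (KO) mice, and ate a high fat diet with 60% of its energy as fat from 6 weeks of age for 15 weeks. WT obese+RvE1 mice received 300 ng of RvE1 into the peritoneum on 4 consecutive days, and WT obese mice received the matching ethanol and PBS vehicle. Livers were taken on day 5 after a fast of at least 4 hours, and each library held the whole liver RNA of 1 mouse. The KO obese+RvE1 and KO obese mice used for comparison had the same diet and injections but lacked ChemR23. The 7 WT lean mice of the diet comparison were male, ate a control diet with 10% of its energy as fat for the same 15 weeks, and received the vehicle.

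RvE1 is a lipid mediator that cells make from eicosapentaenoic acid, an omega-3 fatty acid. It binds ChemR23, a G protein coupled receptor encoded by Cmklr1 that also binds the protein chemerin (Rarres2), and it binds the leukotriene receptor BLT1, encoded by Ltb4r1. In liver, Cmklr1 is known mainly from macrophages and other non-parenchymal cells, whereas hepatocytes supply most of the RNA of the whole organ.

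The expression unit throughout is the normalized count, a gene's reads divided by the library's DESeq2 size factor, and Log2FC is the difference of the group means of log2(normalized count + 1), RvE1 minus vehicle. WT obese libraries held 19966325 to 27257817 reads on listed genes and WT obese+RvE1 libraries 19349856 to 35905406. Hepatocyte markers were high in every library, with a summed normalized count of 1244000 to 1956000 in WT obese and 1460000 to 2117000 in WT obese+RvE1. Mice carry identifiers that open with a number, and among the WT mice compared here each number occurs in 1 group only. WT obese mice had the numbers 22 (1 mouse), 27 (3 mice) and 6 (3 mice), and WT obese+RvE1 mice had 30 (3 mice) and 7 (4 mice). The labels do not say what the number stands for, and its part in any difference cannot be told apart from RvE1. The vehicle mouse 6R stood apart from the other vehicle mice in several genes described below, several of which are also given without it. Where 6R lay on the RvE1 side of the other vehicle mice, leaving it out was bound to widen the difference. Such values add no support for a difference. The reads of the ribosomal precursor Rn45s made up 5.13% to 17.7% of a library in WT obese and 4.8% to 18.2% in WT obese+RvE1.

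Among 13085 genes, limma called none (0.0%), a call being a BH-adjusted p below 0.1 together with a difference of more than 1.5-fold. The smallest adjusted p was 0.15, for Nmrk1, and that of every other gene was 0.772 or higher. At an unadjusted p under 0.05, 324 genes were higher (2.48% of all genes tested) and 471 were lower (3.6%) in WT obese+RvE1 mice. With libraries scaled to equal read totals in place of size factors, 105 genes were higher and 300 lower. With a random block for the identifier number, 57 were higher and 90 lower, and limma again called none. On the reads recovered from the normalized counts, DESeq2 called 15 genes (0.115%), of which 12 were lower and 3 higher, and edgeR called 1 (0.00764%), again Nmrk1. For the other 14 genes the edgeR adjusted p was 0.585 or higher. Without mouse 6R, limma called 3 genes and DESeq2 70. In 14 genes (0.107%) the 2 groups of 7 mice did not overlap at all. The median Log2FC of all genes was 0.005, so the gene lists below are read against a median near 0. For lists, a member counts as higher or lower, or as passing, at an unadjusted limma p under 0.05, which carries no correction for the number of genes, and the limma adjusted p of every member other than Nmrk1 was 0.772 or higher. List counts are to be read beside the shares of all genes, 2.48% higher and 3.6% lower.

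**Figure D1:**
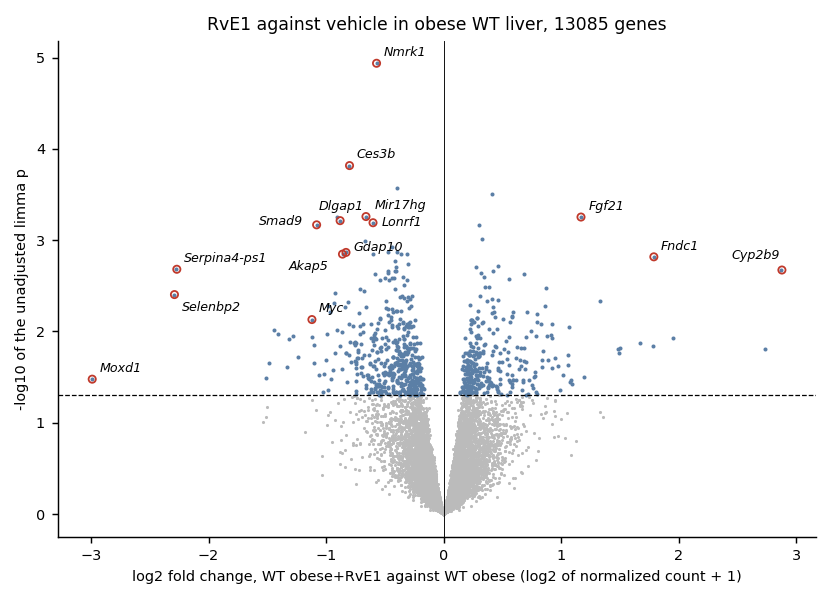
Log2FC (x axis, log2 of normalized count + 1) against -log10 of the unadjusted limma p (y axis) for 13085 genes, WT obese+RvE1 against WT obese with 7 mice per group. Red circles mark the 15 genes that DESeq2 called, blue points lie above the dashed line at an unadjusted p of 0.05, and Nmrk1 stands highest of all genes.

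Nmrk1, the nicotinamide riboside kinase that feeds nicotinamide riboside into NAD synthesis, had a lowest, median and highest normalized count of 1054, 1151 and 1579 in WT obese mice and of 782, 813 and 860 in WT obese+RvE1 mice. Every RvE1 mouse lay below every vehicle mouse, whichever identifier number it carried. The fold was 1.48 lower with RvE1 (Log2FC = -0.57, SE = 0.091, limma adjusted p = 0.15, edgeR adjusted p = 0.0898, DESeq2 adjusted p = 1.17e-05). Nmrk1 lies on chr19:18631950-18652428 on the plus strand of mm10. Over 31 settings its Log2FC stayed between -0.6 and -0.5. It was the 1 member of the 22 tested NAD synthesis and use genes with an unadjusted p under 0.05, and the median Log2FC of that list was -0.0, with -0.18 without number 30 and 0.23 without number 7. Nampt, the rate-limiting enzyme of NAD salvage, had a median of 3034 in WT obese and 2287 in WT obese+RvE1 with overlapping groups (Log2FC = -0.21, SE = 0.16). The deacylase Sirt1 (Log2FC = -0.22, SE = 0.13) and NAD synthetase Nadsyn1 (Log2FC = -0.18, SE = 0.09) did not pass either. Gdap10, a non-coding RNA that lies inside Nampt on the same strand, was called by DESeq2 (Log2FC = -0.83, SE = 0.22, adjusted p = 0.0563). It ranged from 90.1 to 252 with a median of 166 in WT obese and from 64.6 to 110 with a median of 82.2 in WT obese+RvE1, and reads of Gdap10 and Nampt may have been shared between them.

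Mir17hg, the host RNA from which the miR-17-92 microRNAs are cut, was lower in every RvE1 mouse than in any vehicle mouse. Its lowest, median and highest normalized counts were 65.7, 83.0 and 113 in WT obese and 36.7, 53.5 and 63.8 in WT obese+RvE1 (Log2FC = -0.66, SE = 0.15, DESeq2 adjusted p = 0.0823). The host RNA spans chr14:115042879-115046727 on the plus strand and 6 mature microRNAs from it are listed next, because it is their precursor that was measured. Sequences are from RefSeq on GRCm38.p6, 5′ to 3′, with the seed (bases 2 to 8) in capitals.
miR-17-5p: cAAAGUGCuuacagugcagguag
miR-20a-5p: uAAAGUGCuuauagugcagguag
miR-18a-5p: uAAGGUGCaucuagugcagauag
miR-19a-3p: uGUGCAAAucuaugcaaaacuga
miR-19b-3p: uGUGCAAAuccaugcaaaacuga
miR-92a-3p: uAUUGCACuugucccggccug
By seed they fall into 4 groups, with miR-17-5p and miR-20a-5p sharing AAAGUGC and miR-19a-3p and miR-19b-3p sharing GUGCAAA. The mature microRNAs themselves were not measured here.

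Myc, the transcription factor that drives growth genes and is known to act on the miR-17-92 promoter, was lower with RvE1 by the DESeq2 test (adjusted p = 0.0919), with a limma Log2FC of -1.12 (SE = 0.36). Its lowest, median and highest normalized counts were 98.5, 215 and 559 in WT obese and 61.1, 96.5 and 162 in WT obese+RvE1. The 2 highest vehicle mice, 6RL at 559 and 6R at 522, carried the same identifier number. Without the mice of number 6 the Log2FC of Myc was -0.48, with an unadjusted p above 0.05, and without those of number 27 it was -1.67. The groups overlapped, since the vehicle mice 27-2L at 102 and 27RL at 98.5 lay among the RvE1 mice. Of 25 tested members of the Myc network, 3 were lower at an unadjusted p under 0.05 (Mir17hg, Myc and the Max partner Mga) and 1 was higher (the cyclin Ccnd1), with a median Log2FC of -0.06. The ribosome biogenesis targets Ncl (Log2FC = -0.06, SE = 0.12) and Npm1 (Log2FC = -0.06, SE = 0.17) and the polyamine enzyme Odc1 (Log2FC = -0.07, SE = 0.13), none of which the naming rule chose, lay close to 0.

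Fgf21, a hormone that hepatocytes release in fasting and amino acid stress, was higher with RvE1. Its lowest, median and highest normalized counts were 98.5, 130 and 233 in WT obese and 191, 294 and 630 in WT obese+RvE1 (Log2FC = 1.17, SE = 0.27, DESeq2 adjusted p = 0.0316). The RvE1 mice split by identifier number, with 294 to 630 in the 4 mice of number 7 and 191 to 242 in the 3 mice of number 30. Mice of number 7 all lay above every vehicle mouse, whereas those of number 30 overlapped the 2 highest vehicle mice. Without number 7 the Log2FC was 0.56, with an unadjusted p still under 0.05, and without number 30 it was 1.62.

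Of 24 tested genes of the FGF21 and integrated stress response list, 6 were higher at an unadjusted p under 0.05, none was lower, and the median Log2FC was 0.10. The integrated stress response slows general translation and raises ATF4, which acts with C/EBP proteins on genes of amino acid supply and stress. Besides Fgf21, the 6 were Ddit3 (also called CHOP), the very low density lipoprotein receptor Vldlr, the transcription factor Atf5, the pseudokinase Trib3 and the stress cytokine Gdf15. Ddit3 had a median of 144 in WT obese and 182 in WT obese+RvE1 (Log2FC = 0.43, SE = 0.14). Vldlr ran from 53.6 to 225 in WT obese and from 79.5 to 318 in WT obese+RvE1, and its highest vehicle mouse was 6R (Log2FC = 0.92, SE = 0.33, and 1.16 without 6R). Trib3 had a lowest, median and highest value of 61.6, 199 and 244 in WT obese and of 213, 241 and 305 in WT obese+RvE1 (Log2FC = 0.57, SE = 0.25). Trib3 and Gdf15 (Log2FC = 0.99, SE = 0.45) are outside the naming rule and are given because they complete the count. Other members of the same response showed no such difference, among them Atf4 itself (Log2FC = -0.04, SE = 0.1), Chac1 (Log2FC = -0.03, SE = 0.38) and Ppp1r15a (Log2FC = 0.06, SE = 0.14). Asns, a standard ATF4 target, had low counts that pointed the other way (Log2FC = -1.09, SE = 0.56). With 1 identifier number left out at a time, 4 to 7 members of the list were higher and up to 3 lower, and with a random block for the identifier number 3 were higher.

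The promoters of 3 genes that were higher are shown because each holds a match to TGATGNAA, the core of the element that ATF4 and C/EBP proteins bind. Sequences run 5′ to 3′ on the gene's strand from 250 bases before to 50 bases after the start, from RefSeq on GRCm38.p6, with the match in capitals. Fgf21 is chr7:45615441-45615740, Trib3 is chr2:152344011-152344310 and Inhbe is chr10:127351799-127352098, all on the minus strand.
Fgf21: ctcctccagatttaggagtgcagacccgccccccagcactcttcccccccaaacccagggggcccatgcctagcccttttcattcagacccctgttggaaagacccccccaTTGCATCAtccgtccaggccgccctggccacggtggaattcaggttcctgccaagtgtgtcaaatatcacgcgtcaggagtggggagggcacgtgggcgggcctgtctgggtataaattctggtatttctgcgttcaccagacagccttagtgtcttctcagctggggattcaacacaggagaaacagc
Trib3: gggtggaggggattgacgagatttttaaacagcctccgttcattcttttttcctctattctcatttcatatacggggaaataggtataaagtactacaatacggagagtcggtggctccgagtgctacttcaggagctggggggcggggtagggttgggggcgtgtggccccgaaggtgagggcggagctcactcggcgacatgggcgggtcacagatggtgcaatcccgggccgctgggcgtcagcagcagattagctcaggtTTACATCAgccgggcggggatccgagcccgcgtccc
Inhbe: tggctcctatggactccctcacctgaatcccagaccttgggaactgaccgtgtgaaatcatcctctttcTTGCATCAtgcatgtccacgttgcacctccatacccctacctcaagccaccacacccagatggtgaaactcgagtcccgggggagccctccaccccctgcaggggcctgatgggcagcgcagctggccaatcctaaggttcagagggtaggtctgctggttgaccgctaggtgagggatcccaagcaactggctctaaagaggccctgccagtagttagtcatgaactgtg
On both strands, 7 of the 22 list members with a promoter window held such a match (Asns, Atf3, Chac1, Fgf21, Nupr1, Trib3 and Vldlr). Counted by window, a match was in 7 of the list's 26 windows (26.9%), against 3.97% of all 32851 windows. The 7 members included genes that were higher and genes with a Log2FC near or below 0, and a match of letters does not show binding.

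Inhbe, which encodes the liver-secreted activin E subunit, is a member of the BMP, TGF-beta and SMAD list. It had a lowest, median and highest normalized count of 1185, 1703 and 2546 in WT obese and of 1667, 3191 and 4395 in WT obese+RvE1 (Log2FC = 0.71, SE = 0.22). As with Fgf21, the mice of number 7 were highest, at 3191 to 4395, and without them the Log2FC was 0.26, with an unadjusted p above 0.05. The related subunit Inhbc was higher by less (Log2FC = 0.30, SE = 0.12). These were the 2 higher members of 44 tested, and Smad9 was the 1 lower member, with a list median of -0.02. The lower count is near the 3.6% of all genes that were lower.

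Smad9 encodes a receptor-activated SMAD of BMP signalling. Its lowest, median and highest normalized counts were 182, 209 and 443 in WT obese and 69.3, 130 and 188 in WT obese+RvE1. Only the RvE1 mouse 7-2L, at 188, lay above the lowest vehicle mouse. The difference was 2.11-fold (Log2FC = -1.08, SE = 0.26, DESeq2 adjusted p = 0.0364), and over 31 settings it stayed between -1.39 and -0.81. The BMP target Id1 (Log2FC = -0.22, SE = 0.3), the inhibitor Smad7 (Log2FC = -0.17, SE = 0.14) and the ligand Bmp6 (Log2FC = -0.11, SE = 0.22) had overlapping groups. Hamp, which encodes the iron hormone hepcidin and responds to BMP6, had medians of 4014 and 1827 with wide ranges (Log2FC = -0.85, SE = 0.48, and 0.10 without number 7).

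**Figure D2:**
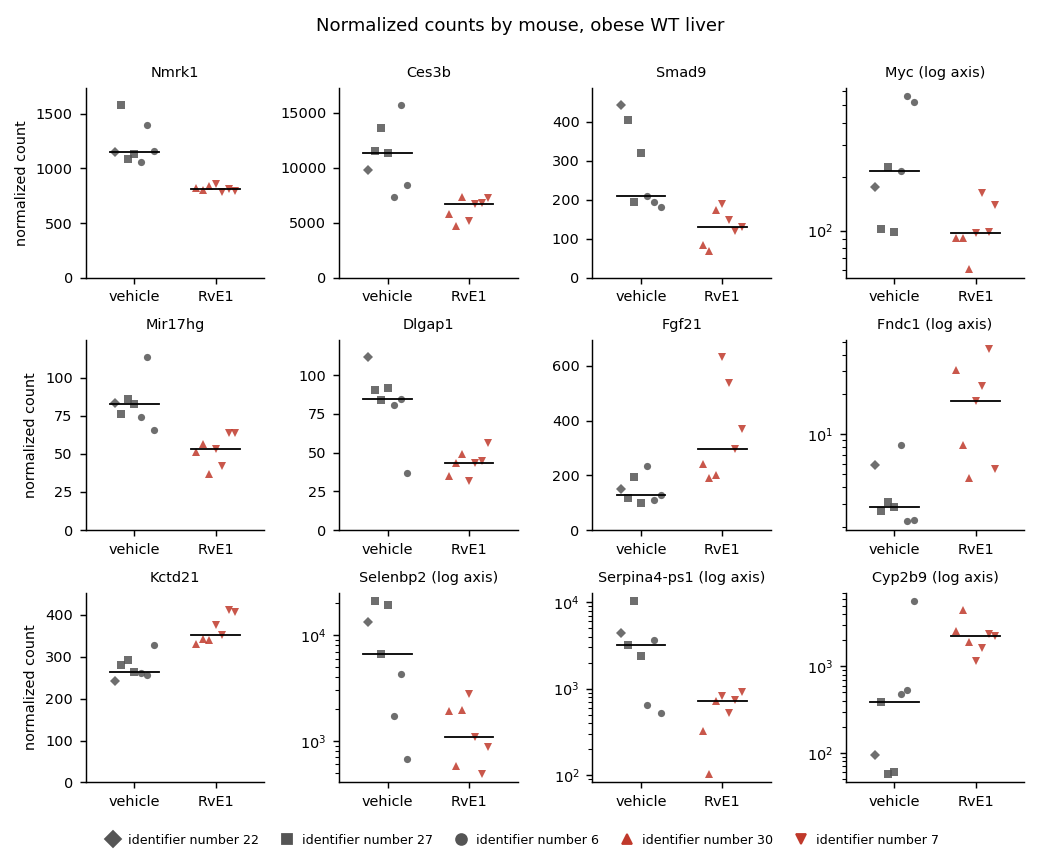
Normalized counts of 12 genes in each of 7 WT obese (vehicle) and 7 WT obese+RvE1 mice, with marker shape giving the identifier number and the horizontal line the group median. Axes marked as log are logarithmic and the others start at 0. In Nmrk1, Mir17hg and Kctd21 no mouse crosses between groups, whereas Selenbp2 splits the vehicle mice by identifier number, Serpina4-ps1 sets 2 vehicle mice of number 6 apart from the other 5, and 1 vehicle mouse has the highest Cyp2b9, at 5666.

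Ces3b, a hepatic carboxylesterase that hydrolyses lipid esters, had a lowest, median and highest normalized count of 7331, 11330 and 15720 in WT obese and of 4668, 6752 and 7389 in WT obese+RvE1. It was 1.75-fold lower with RvE1 (Log2FC = -0.80, SE = 0.16, DESeq2 adjusted p = 0.00579), and only the vehicle mouse 6L, at 7331, fell within the RvE1 range. Over 31 settings the Log2FC stayed between -0.9 and -0.68. Ces3b was the 1 lower member of 14 tested carboxylesterases, Ces2e the 1 higher (Log2FC = 0.23, SE = 0.11), and the list median was -0.09, with -0.28 without number 30 and 0.29 without number 7. The carboxylesterase genes are a cluster of close copies, so reads may be shared between them.

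Several genes that depend on growth hormone were lower with RvE1. Pulsatile growth hormone activates STAT5 in male liver, which maintains Igf1, the SOCS feedback genes and a set of male-biased genes. Of 26 tested members of the growth hormone, STAT5 and IGF1 list, 5 were lower at an unadjusted p under 0.05, none was higher, 22 had a Log2FC below 0, and the median was -0.24. The 5 were Selenbp2, Onecut1, Serpina1e, Cish and Socs2. Selenbp2, a male-biased selenium-binding protein, had a lowest, median and highest normalized count of 680, 6572 and 21020 in WT obese and of 488, 1090 and 2765 in WT obese+RvE1 (Log2FC = -2.29, SE = 0.68, DESeq2 adjusted p = 0.0316). The vehicle mice of numbers 22 and 27 lay at 6572 to 21020, above every RvE1 mouse, while 6R at 680 and 6L at 1723 lay within the RvE1 range. Without number 27 the Log2FC was -1.32, with an unadjusted p above 0.05. Without number 6, which held the lowest vehicle mice, it was -3.58 (limma adjusted p = 0.00908, against 0.772 with all mice). Leaving out the lowest vehicle mice was bound to widen the difference and adds no support for it. Serpina1e, a serpin of the alpha-1-antitrypsin family, had medians of 69770 and 24570 (Log2FC = -1.31, SE = 0.46), and its lowest vehicle mouse was again 6R, at 11830, without which the Log2FC was -1.72. Onecut1, a hepatocyte transcription factor, had medians of 735 and 358 (Log2FC = -1.41, SE = 0.49).

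Cish and Socs2 encode feedback inhibitors that STAT5 induces directly. Cish had a lowest, median and highest normalized count of 188, 671 and 1360 in WT obese and of 103, 212 and 627 in WT obese+RvE1 (Log2FC = -1.24, SE = 0.48), with overlapping groups. Socs2, which completes the count and is outside the naming rule, had medians of 592 and 318 (Log2FC = -0.74, SE = 0.34). The Cish promoter, chr9:107296409-107296708 on the plus strand, is shown because it holds 2 matches, in capitals, to TTCNNNGAA, the palindrome that STAT factors bind.
Cish: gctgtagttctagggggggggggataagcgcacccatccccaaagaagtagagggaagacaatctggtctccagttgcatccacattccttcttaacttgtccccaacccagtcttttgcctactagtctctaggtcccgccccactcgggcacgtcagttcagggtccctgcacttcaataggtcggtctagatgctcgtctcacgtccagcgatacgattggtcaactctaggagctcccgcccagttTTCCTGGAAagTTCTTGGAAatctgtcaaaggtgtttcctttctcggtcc
A match was found in 5 of the 21 list members with a promoter window (Bcl6, Cish, Igfals, Prlr and Socs3), and of these 5 only Cish was among the 5 lower members. Counted by window, a match was in 7 of the list's 30 windows (23.3%), against 8.3% of all windows. The growth hormone receptor Ghr (Log2FC = -0.11, SE = 0.21), Stat5b (Log2FC = -0.01, SE = 0.18) and Igf1 (Log2FC = -0.26, SE = 0.18) did not pass. Averaged over the 26 genes, the log2 difference from the vehicle mean was 0.21 to 0.35 in the vehicle mice of numbers 22 and 27, -0.9 to -0.06 in those of number 6 and -0.77 to -0.02 in RvE1 mice. Without number 27, 3 members were lower, 14 of the 26 had a Log2FC below 0, and the median was -0.07. Without number 6 the median was -0.41. With equal read totals 8 members were lower, and with a random block for the identifier number 2.

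In 2 other genes, vehicle mice of number 6 also lay within the RvE1 range. Serpina4-ps1, annotated as a pseudogene of the serpin family, had a lowest, median and highest value of 515, 3241 and 10310 in WT obese and of 103, 714 and 914 in WT obese+RvE1 (Log2FC = -2.27, SE = 0.62, DESeq2 adjusted p = 0.0316). The vehicle mice 6L at 639 and 6R at 515 were inside the RvE1 range, and the other 5 were at 2369 or higher. Its reads may be shared with functional serpin genes. Moxd1, a copper monooxygenase gene, ranged from 0 to 709 with a median of 26.2 in WT obese and from 0 to 4.46 with a median of 0.642 in WT obese+RvE1 (Log2FC = -2.99, SE = 1.3, DESeq2 adjusted p = 0.0364). The vehicle mice of number 6 had 0 to 1.04, and without number 27 the Log2FC of Moxd1 was -0.52, with an unadjusted p above 0.05.

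**Figure D3:**
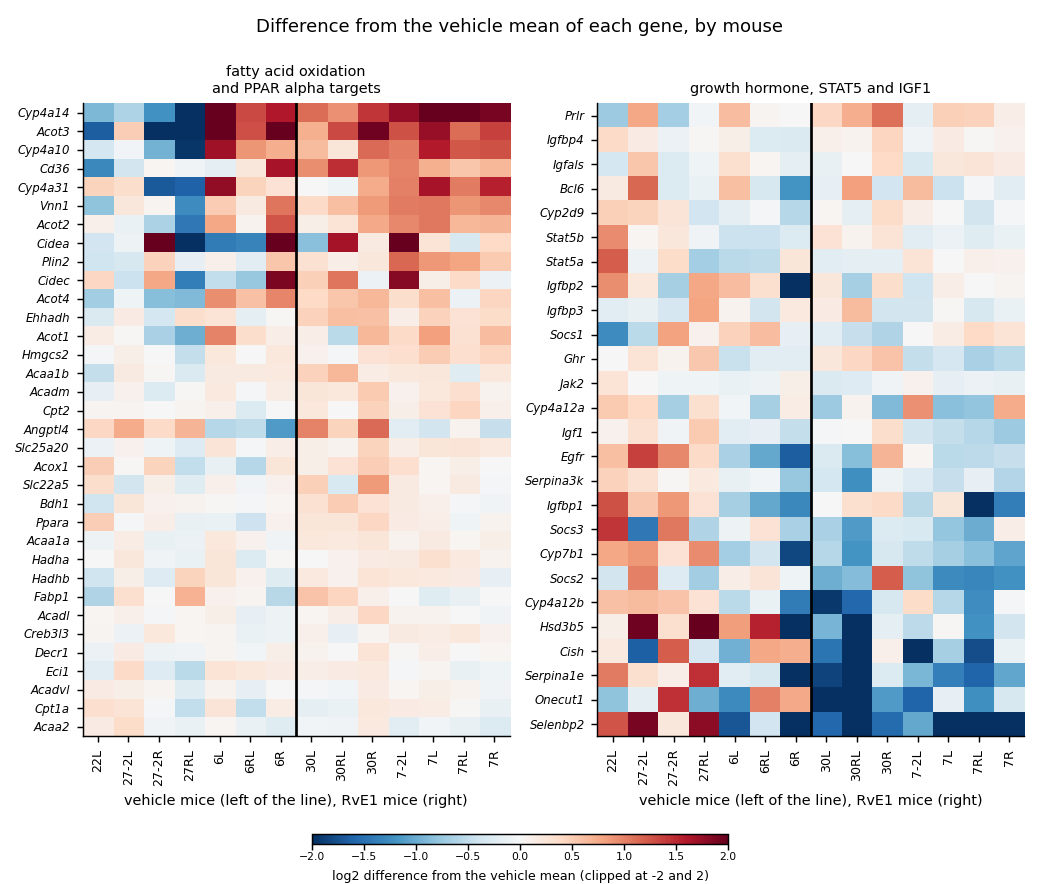
Log2 difference of each gene from its vehicle mean in each mouse, for 34 of the 35 genes of fatty acid oxidation and PPAR alpha targets (left) and 26 of growth hormone, STAT5 and IGF1 (right), with genes ordered by Log2FC and colours clipped at -2 and 2. RvE1 mice are mostly red on the left and mostly blue at the lower right, and vehicle mice of number 6 (6L, 6RL and 6R) resemble them for Cyp4a14 or Selenbp2 more than the vehicle mice of numbers 22 and 27 do.

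Genes of fatty acid oxidation and PPAR alpha targets were the list with the most members higher. PPAR alpha is the nuclear receptor through which fatty acids switch on their own oxidation in fasting liver. Of 35 tested members, 10 were higher at an unadjusted p under 0.05, none was lower, 34 had a Log2FC above 0, and the median was 0.23. Over 68 settings, with mice or identifier numbers left out and with limma, edgeR or DESeq2, between 2 and 17 were higher, none was lower and the median lay between 0.12 and 0.30. Averaged over the list, RvE1 mice lay 0.27 to 0.51 above the vehicle mean on the log2 scale, vehicle mice of numbers 22 and 27 at -0.57 to 0.07, and vehicle mice of number 6 at 0.0, 0.34 and 0.43. The groups therefore overlapped in 2 vehicle mice. With equal read totals 5 members were higher, and with a random block for the identifier number 6.

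Among these genes, Ehhadh, a bifunctional enzyme of peroxisomal oxidation, had a lowest, median and highest normalized count of 6381, 8221 and 10340 in WT obese and of 8885, 11100 and 12330 in WT obese+RvE1 (Log2FC = 0.41, SE = 0.12). Plin2, a lipid droplet coat protein, had 7339, 8589 and 14140 against 10510, 13820 and 21350 (Log2FC = 0.57, SE = 0.19). The pantetheinase Vnn1 had medians of 3577 and 5812 (Log2FC = 0.83, SE = 0.28), and the fatty acid transporter Cd36 had medians of 1745 and 3320 (Log2FC = 0.88, SE = 0.31). Mouse 6R had the highest Cd36 of all 14 mice, at 5723, and without it the Log2FC was 1.16. Others that passed, outside the naming rule, were the omega-hydroxylases Cyp4a14 (Log2FC = 1.67, SE = 0.6) and Cyp4a10 (Log2FC = 1.02, SE = 0.43), the mitochondrial enzymes Acadm (Log2FC = 0.24, SE = 0.098) and Cpt2 (Log2FC = 0.23, SE = 0.094), and the carnitine carrier Slc25a20 (Log2FC = 0.21, SE = 0.091). Cyp4a14 ran from 1274 to 35430 in WT obese and from 13590 to 35480 in WT obese+RvE1, and the 3 vehicle mice of number 6 lay within the RvE1 range. Cpt1a, the gate of mitochondrial oxidation, was near 0 (Log2FC = 0.01, SE = 0.15), and the receptor Ppara itself did not pass (Log2FC = 0.17, SE = 0.13). Slc27a4, a fatty acid transport protein outside the list, was higher in most RvE1 mice, at 815 to 1076 in WT obese and 1046 to 1223 in WT obese+RvE1 (Log2FC = 0.28, SE = 0.076).

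The xenobiotic cytochrome P450 list had 6 of 24 members higher at an unadjusted p under 0.05, none lower, and a median of 0.15. Cyp2b9, a P450 that is normally female-biased in mouse liver, had a lowest, median and highest normalized count of 57.5, 389 and 5666 in WT obese and of 1170, 2242 and 4489 in WT obese+RvE1. All vehicle mice but 6R lay below every RvE1 mouse, and 6R lay above all of them. The Log2FC was 2.88 (SE = 0.79, limma adjusted p = 0.772, DESeq2 adjusted p = 0.0719) with all mice and 3.59 without 6R (limma adjusted p = 0.025). Leaving out 6R, the only vehicle mouse not below the RvE1 mice, was bound to widen the difference and adds no support for it. In edgeR, with all mice, the Log2FC of Cyp2b9 was 1.14 (adjusted p = 0.905). The related Cyp2b13 had 0 to 255 in WT obese, where 6R held the 255 and the other mice 0 to 7.85, and 5.94 to 178 in WT obese+RvE1 (Log2FC = 2.73, SE = 1.0, and 3.66 without 6R). Cyp2b10, the classic target of the receptor CAR, had medians of 53.6 and 139 (Log2FC = 1.5, SE = 0.56), and Cyp3a11, the main target of PXR, had medians of 15310 and 24970 (Log2FC = 0.79, SE = 0.25). Cyp2c38 (Log2FC = 0.98, SE = 0.39) and Cyp2c29 (Log2FC = 0.39, SE = 0.16) complete the 6. Averaged over the list, RvE1 mice of number 30 lay at 0.77 to 0.88 and those of number 7 at -0.06 to 0.30, against -0.46 to 0.31 in vehicle mice. Without number 30, 2 members were higher and 4 lower with a median of 0.03, and without number 7, 8 were higher and none lower with a median of 0.49. With a random block for the identifier number, 3 members were higher. The P450 genes of 1 subfamily are close copies and their reads may be shared.

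**Figure D4:**
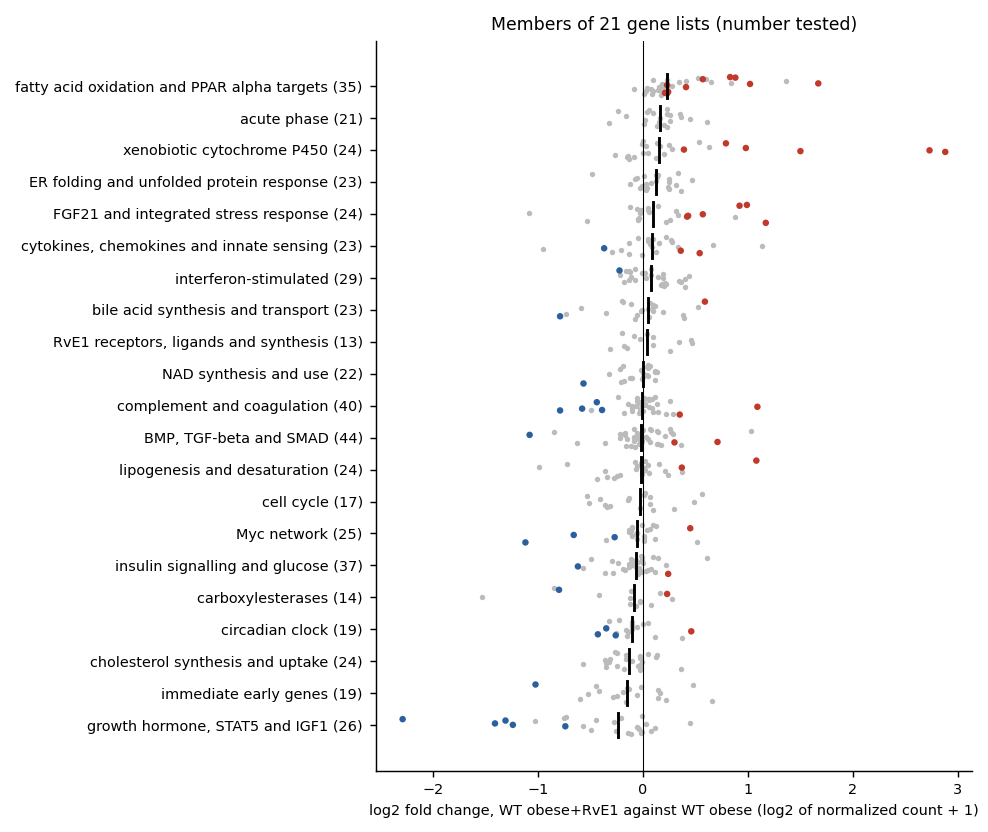
Log2FC (x axis, log2 of normalized count + 1) of each tested member of 21 gene lists, WT obese+RvE1 against WT obese, with the number tested in brackets. Red and blue points have an unadjusted limma p under 0.05, grey points do not, and the black bar is the list median, which runs from -0.24 for growth hormone, STAT5 and IGF1 to 0.23 for fatty acid oxidation and PPAR alpha targets.

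In lipid synthesis, 2 of 24 lipogenesis and desaturation genes were higher and none was lower, with a median of -0.02. They were Mogat1, a monoacylglycerol acyltransferase with medians of 28.2 and 64.4 (Log2FC = 1.08, SE = 0.47), and the NADPH-producing malic enzyme Me1 (Log2FC = 0.37, SE = 0.17). Thrsp, a carbohydrate-responsive lipogenic gene, had medians of 26630 and 7348 with overlapping ranges (Log2FC = -0.99, SE = 0.58, and 0.39 without number 7). Scd1 (Log2FC = 0.21, SE = 0.38) and Fasn (Log2FC = -0.22, SE = 0.3) did not pass. None of 24 cholesterol synthesis and uptake genes had an unadjusted p under 0.05, although 20 had a Log2FC below 0 (median -0.13). For both lists the sign depended on the RvE1 mice, with medians of -0.29 and -0.37 without number 30 and of 0.42 and 0.23 without number 7.

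Of 37 insulin signalling and glucose genes, Irs1 was higher (Log2FC = 0.24, SE = 0.1) and Sik1, a kinase that restrains gluconeogenesis, was lower (Log2FC = -0.62, SE = 0.28), with a median of -0.07, which was -0.2 without number 30 and 0.14 without number 7. Each was 1 of 37, near the shares of all genes (2.48% higher and 3.6% lower). In bile acid metabolism, Cyp7a1, the rate-limiting enzyme of bile acid synthesis, had a lowest, median and highest normalized count of 3275, 9626 and 16000 in WT obese and of 3539, 5078 and 8361 in WT obese+RvE1 (Log2FC = -0.79, SE = 0.31). The basolateral exporter Abcc3 was higher, with medians of 3567 and 5195 (Log2FC = 0.59, SE = 0.19). These were the 2 of 23 members that passed, and the list median was 0.05. Among 19 circadian clock genes, 3 were lower and 1 was higher, with a median of -0.10. The period genes Per3 (Log2FC = -0.43, SE = 0.16) and Per2 (Log2FC = -0.26, SE = 0.12) were among the lower, and the repressor Nr1d1 was the higher (Log2FC = 0.46, SE = 0.19). Per3 was at 1699 to 1956 in the vehicle mice of number 6 alone. It was at 840 to 1271 in those of numbers 22 and 27 and at 875 to 1095 in RvE1 mice. The labels give no time of day for the harvest of each mouse. Gadd45g was the 1 lower gene of 19 immediate early genes (Log2FC = -1.03, SE = 0.48), with a list median of -0.15, and its Log2FC was 0.12 without number 7. With a random block for the identifier number, no member of the insulin, bile acid, clock or immediate early lists passed.

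The receptors and enzymes of RvE1 itself were not different between groups at an unadjusted p under 0.05 in any of the 13 members tested, and their median Log2FC was 0.04. Cmklr1 had a lowest, median and highest normalized count of 35.3, 54.9 and 109 in WT obese and of 46.1, 64.5 and 148 in WT obese+RvE1 (Log2FC = 0.26, SE = 0.28, and -0.13 without number 7). Ltb4r1 had 24.9, 27.5 and 60.2 against 14.1, 25.4 and 37.1 (Log2FC = -0.31, SE = 0.24). The chemerin gene Rarres2 was abundant in both groups, with medians of 3831 and 3387 (Log2FC = 0.10, SE = 0.17). Alox5ap (Log2FC = 0.34, SE = 0.26) and Lta4h (Log2FC = -0.03, SE = 0.092), which serve leukotriene and resolvin synthesis, had overlapping groups. Alox5, the lipoxygenase of both routes, was not among the genes tested.

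Immune genes differed in few members. Of 23 cytokine, chemokine and innate sensing genes, the chemokine Ccl6 (Log2FC = 0.36, SE = 0.16) and the interleukin-1 antagonist Il1rn (Log2FC = 0.54, SE = 0.25) were higher and the interferon-induced chemokine Cxcl9 was lower (Log2FC = -0.37, SE = 0.17). None of 21 acute phase genes passed (median 0.16), and Psmb8 was the 1 lower gene of 29 interferon-stimulated genes (Log2FC = -0.23, SE = 0.1, list median 0.08). That count is near the 3.6% of all genes that were lower. Without number 30, 7 interferon-stimulated genes were higher and the median was 0.31, and without number 7, 3 were lower and it was -0.19. With a random block for the identifier number, no member of the cytokine or interferon lists passed. None of 23 genes of ER folding and the unfolded protein response (median 0.12) and none of 17 cell cycle genes (median -0.03) passed. Without number 27, 11 of the 23 ER folding genes were higher with a median of 0.38, and without number 6 the median was -0.16. In complement and coagulation, 4 of 40 genes were lower, of which 3 encode parts of the membrane attack complex, and 2 were lower with a random block for the identifier number and 1 without number 27. C9 had a lowest, median and highest normalized count of 6218, 10890 and 12920 in WT obese and of 5454, 6233 and 8403 in WT obese+RvE1 (Log2FC = -0.58, SE = 0.16). C6 had medians of 3221 and 2312 (Log2FC = -0.79, SE = 0.28), with 1698 to 3165 in the vehicle mice of number 6, C8a of 25460 and 19800 (Log2FC = -0.39, SE = 0.16), and the clotting factor F11 of 1457 and 1091 (Log2FC = -0.44, SE = 0.18). The 2 higher members, outside the naming rule, were the adipocyte and myeloid gene Cfd (Log2FC = 1.09, SE = 0.47) and the macrophage gene C1qa (Log2FC = 0.35, SE = 0.16). C4b (Log2FC = 0.14, SE = 0.23) and Fn1 (Log2FC = 0.11, SE = 0.25) did not pass, and both were below 0 without number 7.

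Markers of non-parenchymal cells were read as a check of what the whole liver held, and fewer cells of a type and less RNA per cell cannot be told apart in these libraries. All 11 tested Kupffer cell and macrophage markers had a Log2FC above 0 (median 0.29), 1 of them at an unadjusted p under 0.05, and their summed normalized counts were 6072 to 9644 in WT obese and 5283 to 15650 in WT obese+RvE1. The 2 highest sums belonged to RvE1 mice of number 7, and without that number the median was -0.08. C1qa is among these markers, and the part of macrophage content in Ccl6, Il1rn and C1qa was not tested. Markers of mesothelium, the lining of the liver capsule, had a Log2FC above 0 in 5 of 5 genes (median 0.74, 1 at an unadjusted p under 0.05), with sums of 111 to 427 in WT obese and 165 to 556 in WT obese+RvE1. Among adipocyte markers Adipoq, Lep, Plin1 and Retn were not listed, and of 4 tested only Cfd passed. Of 10 T and NK cell markers only Cd4 was listed, at a median of 46.2 in WT obese and 26.3 in WT obese+RvE1 (Log2FC = -0.93, SE = 0.35). Sinusoidal endothelium (median -0.01), stellate cell and fibroblast (0.05), cholangiocyte (0.06) and hepatocyte (0.02) markers had no member at that p. Of monocyte and neutrophil markers 1 of 6 was higher, and none of 4 B cell markers, 2 erythroid markers and the 1 listed acinar marker passed.

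Beside Nmrk1 and Mir17hg, 12 genes had groups that did not overlap, most of them with small differences. Kctd21, an adaptor of cullin ubiquitin ligases, was at 242 to 328 in WT obese and 329 to 412 in WT obese+RvE1 (Log2FC = 0.41, SE = 0.090). Iws1, which takes part in transcription elongation, was at 1011 to 1352 against 847 to 982 (Log2FC = -0.40, SE = 0.086). Nagpa, which completes the mannose 6-phosphate tag of lysosomal enzymes, was at 368 to 459 against 469 to 519 (Log2FC = 0.30, SE = 0.072), and the transporter Mfsd5 at 398 to 529 against 540 to 608 (Log2FC = 0.32, SE = 0.081). The other 8 had Log2FC from -0.36 to 0.69. Chosen after their values were seen, Scly and 4930480G23Rik were higher, and Slc35b3, C920006O11Rik, Zranb1, Zmat2 and Gspt2 were lower. The selenocysteine lyase Scly was at 1979 to 2149 against 2240 to 2590 (Log2FC = 0.18). Among the other genes with the smallest p, overlap remained. Sgk2 (Log2FC = 0.46, SE = 0.12) and the lipase Abhd4 (Log2FC = 0.32, SE = 0.087) lay higher, and Serinc4 (Log2FC = -0.9, SE = 0.21), the muscle filament gene Neb (Log2FC = -0.67, SE = 0.17) and the splicing factor Srek1 (Log2FC = -0.44, SE = 0.11) lay lower. Hexa, a lysosomal hydrolase, also lay higher (644 against 873 at the median, Log2FC = 0.42, SE = 0.12).

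Of the 15 genes that DESeq2 called, 4 remain. Dlgap1, a scaffold gene known from synapses, had a lowest, median and highest normalized count of 37.0, 84.7 and 111 in WT obese and of 31.9, 43.5 and 55.9 in WT obese+RvE1 (Log2FC = -0.88, SE = 0.21). The value of 37.0 was that of mouse 6R, and the other vehicle mice lay at 80.4 or higher. Without 6R the Log2FC was -1.06 (limma adjusted p = 0.025, against 0.772 with all mice). Leaving out the only vehicle mouse within the RvE1 range was bound to widen the difference and adds no support for it. Akap5, a kinase anchoring protein, had medians of 64.1 and 31.1 (Log2FC = -0.86, SE = 0.22), and the RING protein gene Lonrf1 of 307 and 202 (Log2FC = -0.60, SE = 0.14). Fndc1, a fibronectin type III domain gene, was scarce, at 2.20 to 8.35 in WT obese and 4.70 to 44.3 in WT obese+RvE1 (Log2FC = 1.79, SE = 0.47, DESeq2 adjusted p = 0.0532).

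Whether these differences depended on ChemR23 was asked by setting the same injections in KO obese mice beside them. No gene of 13061 differed between the WT and KO responses at a limma adjusted p under 0.1 (0.0%), with 312 (2.39%) at an unadjusted p under 0.05, and edgeR and DESeq2 also passed none. In KO mice 490 of 14207 genes (3.45%) were higher and 689 (4.85%) lower at an unadjusted p under 0.05. Nmrk1 was lower in KO mice as well (Log2FC = -0.65, SE = 0.17, WT minus KO 0.08, SE = 0.20). So were Smad9 (Log2FC = -1.03, SE = 0.31, WT minus KO -0.05, SE = 0.42), Myc (Log2FC = -1.23, SE = 0.46, WT minus KO 0.12, SE = 0.62), Ces3b (Log2FC = -0.67, SE = 0.3) and Serpina4-ps1 (Log2FC = -2.20, SE = 0.95), each at an unadjusted p under 0.05. Gdap10 was lower in KO mice at that p too (Log2FC = -0.7, SE = 0.26, WT minus KO -0.13, SE = 0.35). For Smad9, Ces3b and Serpina4-ps1 the lowest KO obese+RvE1 mice were 12-2L and 23RL, whose libraries were the closest pair of that group. Smad9 was 67.18 and 82.45 in them and 100.1 to 247.1 in the other KO obese+RvE1 mice. Some of those others lay within the KO obese range of 151.4 to 488.8. Ces3b was 2679 and 2362 in them and 5861 to 9177 in the other KO obese+RvE1 mice. Serpina4-ps1 was 41.1 and 28.5 in them and 643 to 1918 in the others. For Ces3b and Serpina4-ps1 the others lay within the KO obese ranges of 5103 to 11900 and 432 to 4901. The WT minus KO differences have wide errors and do not show that the responses were alike.

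For Fgf21 the KO Log2FC was 0.27 (SE = 0.29), and WT minus KO was 0.90 (SE = 0.42), under 0.05 unadjusted but with a limma adjusted p = 1.0. KO obese vehicle mice had a lowest, median and highest Fgf21 of 98.5, 265 and 306 and KO obese+RvE1 mice of 119, 292 and 508. Fndc1 had a WT minus KO difference of 2.04 (SE = 0.76), again under 0.05 unadjusted with a limma adjusted p = 1.0, and Mir17hg of -0.59 (SE = 0.30), with a KO Log2FC of -0.07. In KO mice Fndc1 was scarce, with means of 4.19 with vehicle and 4.56 with RvE1. That is below the mean of 5 needed for a test in KO mice alone. Inhbe had a KO Log2FC of 0.08 (SE = 0.32) and a WT minus KO difference of 0.63 (SE = 0.41). Serinc4 had a KO Log2FC of -0.12 (SE = 0.23) and a WT minus KO difference of -0.79 (SE = 0.3). That difference was under 0.05 unadjusted in limma and did not pass after adjustment. Among the lists, the growth hormone, STAT5 and IGF1 genes had 5 of 26 lower in KO mice with a median of -0.31, where Cish stood at -2.18 (SE = 0.63) and Onecut1 at -1.87 (SE = 0.59). The fatty acid oxidation and PPAR alpha list had 2 of 35 higher in KO mice and a median of 0.08, Cyp4a14 among them at 1.69. The FGF21 and integrated stress response list had 5 of 24 higher and 1 lower with a median of 0.20, and the xenobiotic P450 list had none of 24 in either direction. No difference between genotypes was tested for a list.

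**Figure D5:**
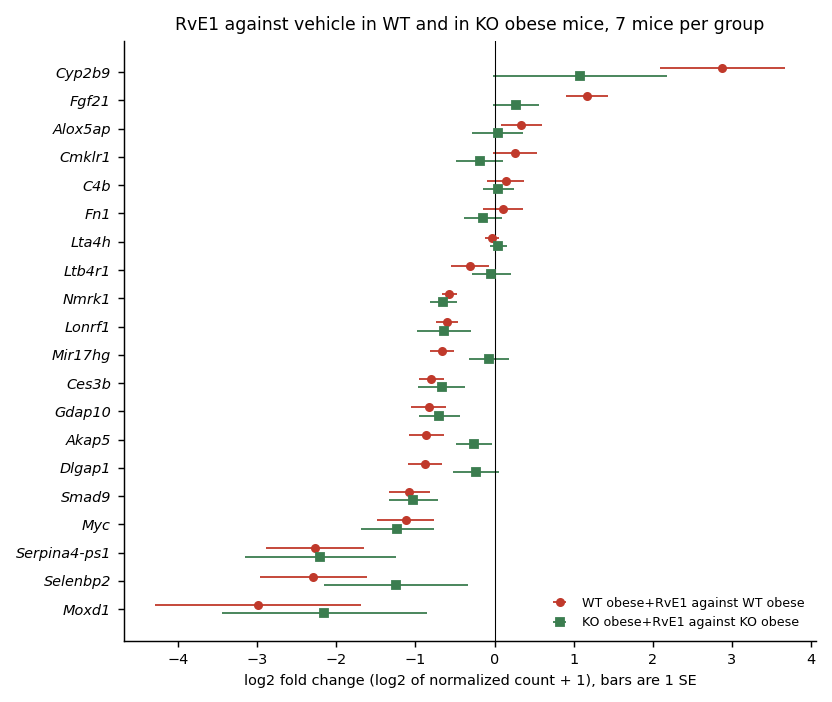
Log2FC (x axis, log2 of normalized count + 1) of RvE1 against vehicle in WT obese mice (red circles) and in KO obese mice (green squares), 7 mice per group, with bars of 1 SE. Genes are those the study names for this comparison and those DESeq2 called that were tested in both genotypes. Nmrk1, Smad9 and Myc lie at similar values in both, and Fgf21 lies at 1.17 in WT and 0.27 in KO.

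The WT obese mice are also the obese arm of the comparison of diets in WT mice, so the 2 sets of values share 7 mice and are only set side by side. A departure in these 7 mice alone moves the 2 Log2FC in opposite directions. Opposite signs are therefore not independent results. Nmrk1 was higher in WT obese than in WT lean mice (Log2FC = 0.91, limma adjusted p = 0.00461) and lower with RvE1 (-0.57). Fgf21 was lower with the diet (Log2FC = -1.68, adjusted p = 0.0102) and higher with RvE1 (1.17). Gdap10 was higher with the diet (1.06, adjusted p = 0.0312) and lower with RvE1 (-0.83), and Ehhadh was lower with the diet (-1.48, adjusted p = 0.00295) and higher with RvE1 (0.41). Smad9 was lower with both (-1.22 with the diet, adjusted p = 0.0214, and -1.08 with RvE1), and Cyp2b9 was higher with both (6.28 with the diet, adjusted p = 0.000885, and 2.88 with RvE1). Ces3b (0.20 with the diet, adjusted p = 0.663) and Myc (0.02, adjusted p = 0.991) did not pass the limma test of the diet.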

How the data were processed

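Whole liver RNA of 42 mice was sequenced from stranded total RNA libraries, although the labels list the molecule as polyA RNA. The authors aligned read pairs to mm10 with Bowtie2, counted pairs with both ends mapped per gene with featureCounts, and normalized the counts with DESeq2 within each comparison. The deposited signal values are these counts divided by size factors, so that values are comparable within a table only. The annotation and the strand option were not given in the sources used here. The deposited tables also hold the authors' fold changes, p-values and adjusted p-values, which were not used. A gene listed in 2 rows kept its rows apart, and 20 date-like gene names were tested but not named.

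All 13085 listed genes had a mean normalized count of at least 5. The deposited values were whole multiples of the worth of 1 read in 100% of cases within a tolerance of 0.1 reads, which gave the reads per library. All libraries were kept as separate mice. The lowest chi-square per gene between mice of a group was 42.6 in WT and 21.7 in KO mice, where sampling noise alone gives about 1. Such values set apart reads drawn again from 1 library, but 2 libraries made from 1 liver could also exceed sampling noise. Whether any 2 libraries came from 1 liver was not tested. The pair at 21.7, the KO obese+RvE1 mice 12-2L and 23RL, stood closer than the next pair of its group at 41.5 and was kept as 2 mice. Log2(normalized count + 1) was tested with limma 3.58.1 (lmFit, eBayes with trend, two-sided) in R 4.3.3 with BH adjustment. A call needed an adjusted p below 0.1 and a difference of more than 1.5-fold. Recovered reads were tested with edgeR 4.0.16 (quasi-likelihood, TMM), DESeq2 1.42.0 (Wald test) and limma voom. The WT minus KO contrast was fitted over 28 mice, with the WT and KO values kept to their own tables. p-values measure the spread between mice, some of which shared an identifier number. The procedure was tested on simulated data. Those counts were drawn independently for each library, so the simulation does not cover mice that share an identifier number. Low counts limit the precision for scarce genes such as Moxd1 and Fndc1.

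Named genes are those the study names for this comparison, the 10 higher and 10 lower with the smallest limma p, those that edgeR or DESeq2 called, and the 4 members of each list with the smallest p. The genes that the study names were chosen on these samples and are not independent evidence. The members, lists, markers and rule were chosen with earlier results of these data known. Lists are described by counts and medians and were not tested as sets. Gene positions are from GENCODE M21 on GRCm38, the build of mm10, through symbols (105 of 106 named genes matched), and sequences from RefSeq on GRCm38.p6. Alternatives were pseudocounts of 0.5 and 4, a mean of at least 20, TMM, equal read totals, library weights, the identifier number as a random block, and leaving out mice or numbers. The edgeR and DESeq2 fits with mice or numbers left out, and the lists under every setting, were chosen after seeing the data. List members named for their role, or to complete a count, beyond the rule were also picked with their values known. Exon-level and microRNA data were not analysed here. Some genes that enter the counts are not reported here by name.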

Additional observations from a re-analysis of the deposited data

Results flagged for a closer look

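In 110 groups of 7 mice, a single mouse stood farther from the others than Dixon's 95% critical value allows in 6, and chance alone gives about 5% of groups. Among genes, Ltb4r1 was at 60.18 normalized counts in the WT obese mouse 27-2L against 24.9 to 32.87 in the others. Dlgap1 was at 36.97 in the WT obese mouse 6R against 80.4 to 111.4. Iws1 was at 982.4 in the WT obese+RvE1 mouse 7-2L against 846.7 to 896.7. Among means of the log2 difference from the vehicle mean over a list, the BMP, TGF-beta and SMAD genes were at 0.471 in the WT obese mouse 22L against -0.232 to 0.059 in the others. The interferon-stimulated genes were at -0.534 in the same mouse against -0.046 to 0.256. The immediate early genes were at -1.26 in the WT obese+RvE1 mouse 7RL against -0.176 to 0.486.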

How the results depend on the processing

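Of 3179 recomputed Log2FC of 106 named genes, 3164 kept their direction, and 24 genes passed the test under some alternative. Genes called, 0 by limma with all mice, were 1 with edgeR and 15 with DESeq2, and by limma 1 without number 30 (Zbtb16), 47 without number 6, 1 without number 7 (Hamp2) and 0 to 3 with 1 mouse left out, the 3 without mouse 6R. Genes at an unadjusted p under 0.05, 795 with all mice, were 405 with equal read totals, 1324 with library weights, 147 with a random block for the identifier number (correlation 0.3728), 1645 without number 30, 1433 without number 6 and 1343 without number 7. DESeq2 called 15 genes with all mice, 4 to 70 with 1 mouse left out, 33 without number 27, 210 without 30, 249 without 6 and 85 without 7. edgeR called 1 with all mice, 0 to 3 with 1 left out, 0 without number 22 or 27 and 46 without 6. The WT minus KO count stayed at 0 in every setting run. The direction turned without number 7 in Cmklr1 (-0.13), C4b (-0.22), Fn1 (-0.34), Fpr2 (-0.49), Hamp (0.10), Thrsp (0.39), Stard4 (0.02), Cyp51 (0.17), Gadd45g (0.12) and Birc5 (0.11), without number 27 in Cmklr1 (-0.04) and Lta4h (0.01), and without number 6 in Stat3 (-0.05). With 1 mouse left out, Lta4h ran from -0.08 to 0.00 and Fn1 from -0.03 to 0.24. The cause of these changes was not tested. No paired analysis was possible because each identifier number of the WT mice occurs in 1 group only, and the KO groups share only number 23.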
